A study of Mustela putorius furo with 9 samples.

Results

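The genes described here are 65 of the 28494 genes in the deposited table of NBL-7 cells. The rule that picks them uses the symbol alone and no measured value, but earlier results of these data were known when they were chosen. It takes all genes whose symbol starts with SNRP or HNRNP, or with SRSF, SF3A, SF3B or PRPF followed by a digit. They fall into 12 SNRP genes, 11 SRSF genes, 20 HNRNP genes, 9 SF3A and SF3B genes and 13 PRPF genes. All 65 symbols were also present in a RefSeq gene table of another ferret assembly, and all 65 passed the filter on low values.

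The spliceosome removes introns from pre-mRNA. It is built from small nuclear ribonucleoproteins (snRNPs), each a small nuclear RNA held in a ring of Sm proteins with further proteins of its own, which recognise the ends of the intron and its branch point and then rearrange into the catalytic machine. SR proteins, named for their arginine and serine repeats, bind exons and mostly favour their inclusion, and many heterogeneous nuclear ribonucleoproteins (hnRNPs) bind the same transcripts and oppose them. These genes are expressed in nearly all cells, and many SR protein and hnRNP genes are known to limit their own mRNA through unproductive splicing, which a value per gene does not show.

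RNA sequencing was done on 9 libraries in 3 groups of 3, from cells the labels call a ferret lung epithelial line; NBL-7 is also the name of a mink lung line. The group titled Ep1 is labelled untreated, the group titled Ep2 is labelled with particulate matter at 250 µg/mL, and the remaining group is titled PBS1 but labelled with particulate matter at 500 µg/mL. PBS usually names a buffer given as vehicle, so its title and label point to different treatments; it is called PBS here, and its libraries go by their column names PBS1, PBS2 and PBS3, which cannot be tied to single titles. The sources used here name neither the exposure time nor the origin of the particles. Nor does any label tell whether replicate libraries stem from separate cultures, so a p-value reflects library-to-library spread that may be technical alone.

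Library depth ran from 12469851 to 13533482 fragments. Epithelial markers were mixed: KRT7, KRT19 and KRT8 averaged 1049, 259 and 178 FPKM in PBS, but EPCAM was listed at 0 in all libraries, and only 4 of 9 epithelial markers reached 1 FPKM in at least 3 libraries. Summed epithelial markers were 1370 to 1600 FPKM in PBS, 1151 to 1533 FPKM in Ep1 and 1073 to 1245 FPKM in Ep2. Of 7 fibroblast, 6 endothelial and 6 leukocyte markers, 2, 1 and 1 reached that level, with DCN, LUM, CDH5 and LYZ at 0. The fibroblast and leukocyte sums stayed within 1.98 to 3.73 and 1.59 to 2.97 FPKM over all libraries. The endothelial sum was 15.6 to 17.7 FPKM in PBS, 12 to 13 FPKM in Ep1 and 13.9 to 16 FPKM in Ep2, so that Ep1 lay below both other groups; it came almost wholly from TEK, which was called higher in Ep2 than in Ep1 (0.26, SE 0.07, adjusted p = 0.0245). The part of these markers in the results was not tested. Over the 65 splicing genes, when the PBS mean is set to 0 and the Ep2 mean to 1, Ep1_1 lay at 0.152, near the PBS libraries (-0.0681 to 0.113), whereas Ep1_2 and Ep1_3 lay at 0.526 and 0.655. The main counts that use Ep1 are therefore given with and without Ep1_1.

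Of the 3 comparisons, that of PBS and Ep2 gave the most calls. Between these groups 27 of the 65 genes were higher in PBS, 12 were lower and 26 were not called, by limma on log2(FPKM + 1) with Benjamini-Hochberg adjustment over all 11840 tested genes and a threshold of 0.05. The 39 calls are 60.0% of the genes, against 49.6% of all tested genes (25.4% higher and 24.2% lower in PBS). Of the 65 genes, 53 belong to the most abundant tested genes, those with a mean of at least 29.9 FPKM, and of those abundant genes 65.6% were called, a larger share than of the 65 genes. Of tested genes of at most 1000 bases, 49.0% were called. The libraries of PBS and Ep2 did not overlap for 49 genes (75.4%, against 60.3% of all tested genes). The changes were small: the median fold of the called genes was 1.26, and 0 of the 65 genes reached a log2 difference of 1. Their median log2 difference was 0.07, against 0.00235 over all tested genes. After quantile normalization the split became 19 higher and 19 lower, with 31 genes called both ways of scaling, and after removal of the trend on gene length it became 20 higher and 15 lower, with 31 shared; no called gene changed direction. In bulk RNA a smaller number of cells that express a gene and less RNA per cell cannot be told apart.

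Between Ep2 and Ep1, 11 genes were higher in Ep2, 9 were lower and 45 were not called. These 20 calls are 30.8% of the genes, against 27.4% of all tested genes (13.4% higher and 14.0% lower) and 42.5% of the most abundant genes. Of tested genes of at most 1000 bases, 29.8% were called. The groups did not overlap for 30 of the 65 genes (46.2%, against 42.8% of all tested genes), and without Ep1_1 for 34 (52.3%, against 48.7%). The count was 17 without Ep1_1, where 15.6% of all tested genes were called. Without Ep2_3, the Ep2 library on which most of these calls depended, it was 7, where 10.7% of all tested genes were called. The 7 calls that held under every alternative tried were SNRPA, SNRPD1, SRSF10, HNRNPLL, HNRNPUL1, HNRNPUL2 and PRPF39. By the limma F-test over the 3 groups, 36 of the 65 genes differed (55.4%, against 45.4% of all tested genes). Without Ep2_3 that number was 23, and the share over all tested genes was not computed for that setting. Among the 36 genes the means fell from PBS through Ep1 to Ep2 for 19, and rose in that order for 8. Without Ep1_1, 40 genes differed (61.5%, against 49.3% of all tested genes), of which 19 had the falling and 8 the rising order. The share of these orders over all tested genes was not computed. The comparisons share groups, so their calls are not independent of one another.

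**Figure D1:**
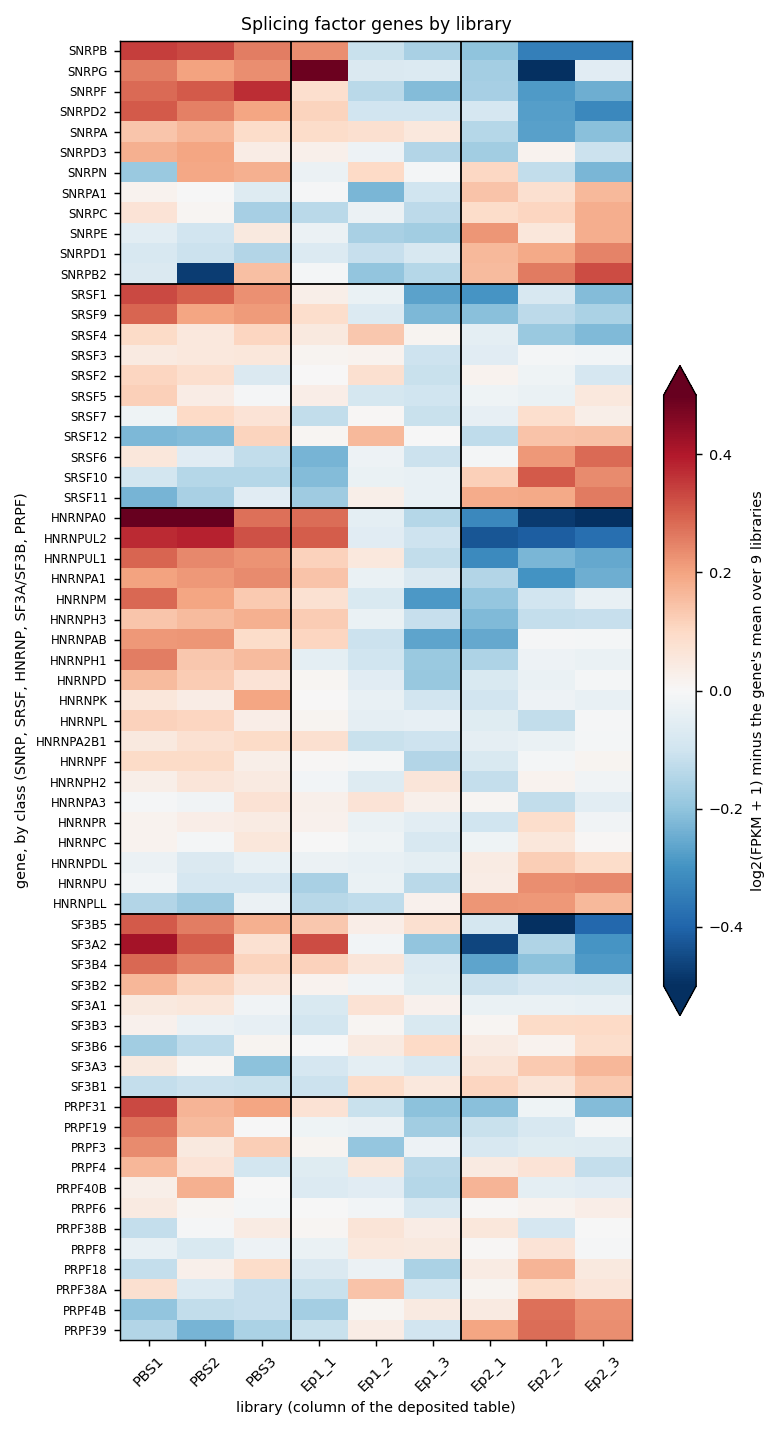
Heat map of 64 of the 65 splicing genes (rows, grouped by class and ordered by the difference between PBS and Ep2) in the 9 libraries (columns). Colour gives log2(FPKM + 1) minus the gene's mean over the 9 libraries, red above and blue below, with the colour scale ending at 0.5 either way. Each class holds genes that were high in PBS beside genes that were high in Ep2, and Ep1_1 resembles the PBS libraries.

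In the SNRP class, 6 of 12 genes were higher in PBS than in Ep2, 3 were lower and 3 were not called (median log2 difference 0.18). The calls are 75% of the class, against 49.6% of all tested genes and 65.6% of the most abundant ones. Between Ep2 and Ep1, 4 were higher and 2 lower in Ep2 (50%, against 27.4% and 42.5%). The 7 Sm genes code for the protein ring shared by most spliceosomal snRNPs, whose subunits are present once each in the finished ring. Their mRNAs did not move together. SNRPB, which codes for Sm B, measured 414, 409.7 and 389.6 FPKM in columns PBS1, PBS2 and PBS3, 383, 302 and 291 FPKM in Ep1_1, Ep1_2 and Ep1_3, and 283, 257 and 257 FPKM in Ep2_1, Ep2_2 and Ep2_3. SNRPD1 measured 127, 124 and 121 FPKM in PBS, 128, 124 and 127 FPKM in Ep1 and 151, 153 and 159.6 FPKM in Ep2, the libraries being listed in the same order here and below. All SNRPB values in Ep2 lay below all others and all PBS values above, while all SNRPD1 values in Ep2 lay above those of both other groups, which overlapped each other. The log2 difference of PBS minus Ep2 was 0.61 (SE 0.09, adjusted p = 0.00076) for SNRPB and -0.31 (SE 0.05, adjusted p = 0.000796) for SNRPD1. That of Ep2 minus Ep1 was 0.29 (SE 0.05, adjusted p = 0.00478) for SNRPD1, and -0.28 (SE 0.09, adjusted p = 0.0434) for SNRPB, a call lost under 9 of 19 alternatives, among them the loss of Ep1_1, of Ep2_2, of Ep2_3 or of any PBS column (adjusted p up to 0.130).

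SNRPE measured 156, 152 and 168 FPKM in PBS, 159, 145 and 144 FPKM in Ep1 and 189, 169 and 184 FPKM in Ep2. SNRPE thus resembled SNRPD1, with every Ep2 library above every PBS and Ep1 library; Ep2 minus Ep1 was 0.28 (SE 0.06, adjusted p = 0.0132), lost without Ep2_3, and PBS minus Ep2 -0.19 (SE 0.06, adjusted p = 0.0335), lost without column PBS1, column PBS2, Ep2_1 or Ep2_3. The PBS minus Ep2 call of SNRPE was also lost without the filter on low values and without the variance trend on intensity. SNRPF measured 195, 198 and 207 FPKM in PBS, 169.7, 146 and 137 FPKM in Ep1 and 143, 132 and 135 FPKM in Ep2. The PBS values of SNRPF exceeded all Ep1 and Ep2 values, and PBS minus Ep2 was 0.55 (SE 0.07, adjusted p = 0.000481). SNRPD2 showed the same order, at 270.0, 260.0 and 250.3 FPKM in PBS, 235, 204 and 204 FPKM in Ep1 and 206, 180.0 and 174 FPKM in Ep2 (PBS minus Ep2 0.48, SE 0.08, adjusted p = 0.000926).

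SNRPG measured 76.9, 74.1 and 75.5 FPKM in PBS, 90.5, 61.1 and 61.1 FPKM in Ep1 and 57, 36.1 and 61.7 FPKM in Ep2. Its highest value was in Ep1_1 and its lowest in Ep2_2, and with 478 bases it is the shortest of the 65 genes and rested on 222 to 573 fragments per library. The PBS minus Ep2 difference of SNRPG, 0.58 (SE 0.19, adjusted p = 0.0264), was lost under 6 of 18 alternatives, among them the loss of any 1 PBS column or of Ep2_2 and the removal of the length trend. SNRPD3 averaged 153 ± 9.13 FPKM (SD, n = 3) in PBS, 134 ± 8.02 FPKM in Ep1 and 131 ± 8.87 FPKM in Ep2. It was higher in PBS than in Ep2 (0.23), a call lost without column PBS1, column PBS2, Ep2_1 or Ep2_3. This call was also lost with quantile normalization and with the length trend removed.

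Because FPKM is scaled to length, the 7 mRNAs can be set side by side, a comparison chosen after their values were seen. SNRPB made up 28.8% to 29.7% of the summed FPKM of the 7 Sm genes in PBS, 26.7% to 29.3% in Ep1 and 23.4% to 24.6% in Ep2. SNRPD1 made up 8.94% to 9.09%, 9.81% to 11.6% and 13.1% to 14.5%, and SNRPE 11% to 12.4%, 12.1% to 13.2% and 15.8% to 16.7%. The ratio of SNRPD1 to SNRPB was 0.304 to 0.311 in PBS, 0.335 to 0.436 in Ep1 and 0.531 to 0.621 in Ep2, with no overlap between groups. Within Ep1 the ratio was lowest in Ep1_1. The summed FPKM of the ring was 1354 to 1397 in PBS, 1090 to 1306 in Ep1 and 1067 to 1151 in Ep2.

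Of the proteins that belong to a single snRNP, SNRPA, a protein of the U1 snRNP, which binds the upstream splice site, was lower in Ep2, where it measured 55.9, 51.1 and 53.4 FPKM compared with 66, 65.5 and 64.2 FPKM in Ep1 and 68.1, 69.5 and 65.9 FPKM in PBS. The 3 Ep2 values lay below all the others, and both differences passed (Ep2 minus Ep1 -0.28, SE 0.05, adjusted p = 0.00648, PBS minus Ep2 0.34, SE 0.05, adjusted p = 0.000828). SNRPA1, a protein of the U2 snRNP, which binds the branch point, went the other way, at 89.2, 85.4 and 90.3 FPKM in Ep2, 80.2, 68.6 and 75.2 FPKM in Ep1 and 81.5, 80.6 and 77 FPKM in PBS (Ep2 minus Ep1 0.24, SE 0.06, adjusted p = 0.0193, lost without Ep1_2 or Ep2_3). SNRPB2, its partner in that snRNP, measured 49.9, 53.7 and 56.2 FPKM in Ep2, 44.3, 38.8 and 40.3 FPKM in Ep1 and 42.4, 31.9 and 49.7 FPKM in PBS, where column PBS2 held the lowest value of all libraries. Its PBS minus Ep2 difference was -0.38 (SE 0.13, adjusted p = 0.0309), lost without column PBS1, column PBS2, Ep2_2 or Ep2_3 and without the filter on low values. SNRPC, another U1 protein, was higher in Ep2 than in Ep1 (0.23, SE 0.07, adjusted p = 0.0309), a call lost without Ep1_1, Ep1_3, Ep2_2 or Ep2_3. This call was also lost without the filter on low values and without the variance trend on intensity. SNRPN, a close relative of SNRPB, measured only 12.1 to 16.5 FPKM and was not called in any comparison. The counting of reads shared by SNRPB and SNRPN is not documented in the sources used here, so their values are uncertain to that extent.

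**Figure D2:**
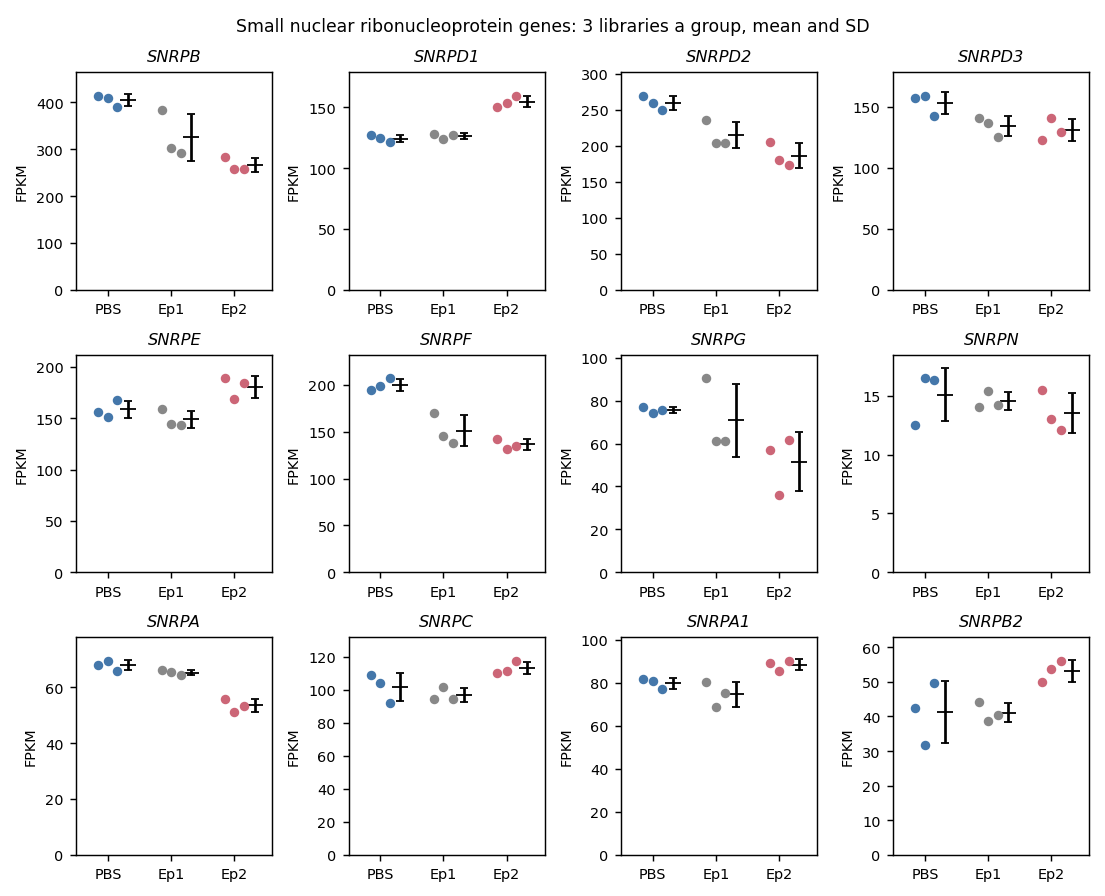
FPKM of the 12 SNRP genes, 1 panel a gene with the vertical axis from 0; points are the 3 libraries of each group and the bar gives mean and SD. SNRPB, SNRPD2, SNRPF and SNRPA had their lowest mean in Ep2, and SNRPD1, SNRPE, SNRPA1 and SNRPB2 their highest.

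In the SRSF class, 3 of 11 genes were higher in PBS than in Ep2, 2 were lower and 6 were not called. The calls are 45.5% of the class, against 49.6% of all tested genes, and the median log2 difference was 0.05. SRSF1, the founding SR protein, had the highest mean FPKM of the class and measured 281, 275 and 262 FPKM in PBS, 228, 219 and 186 FPKM in Ep1 and 182, 212 and 192 FPKM in Ep2. All PBS values exceeded all others, while Ep1 and Ep2 overlapped (PBS minus Ep2 0.48, SE 0.08, adjusted p = 0.00114). SRSF9, a shorter relative of SRSF1, had the same pattern, at 189, 178 and 179.5 FPKM in PBS, 165, 148 and 132 FPKM in Ep1 and 134, 141 and 139 FPKM in Ep2 (PBS minus Ep2 0.40, SE 0.07, adjusted p = 0.00161). SRSF4 measured 55.9, 54.2 and 56.2 FPKM in PBS, 54, 57.4 and 52.6 FPKM in Ep1 and 50.4, 45.7 and 44.6 FPKM in Ep2, where all values were below those of PBS and Ep1. It passed for PBS minus Ep2 (0.24, SE 0.06, adjusted p = 0.00868) and for Ep2 minus Ep1 (-0.22, SE 0.06, adjusted p = 0.0245), the latter lost without Ep1_2, Ep2_2 or Ep2_3. The latter was also lost when only the 6 libraries compared were fitted.

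SRSF10, known as a splicing repressor when dephosphorylated, was higher in Ep2, where it measured 40.7, 46.4 and 44.2 FPKM compared with 32, 36.5 and 36.4 FPKM in Ep1 and 35, 33.7 and 33.8 FPKM in PBS. Every Ep2 value lay above every other one, with log2 differences of 0.32 (SE 0.07, adjusted p = 0.0104) for Ep2 minus Ep1 and -0.35 (SE 0.07, adjusted p = 0.00252) for PBS minus Ep2. SRSF11, another SR-related protein, behaved alike, at 91.9, 92.2 and 96.6 FPKM in Ep2, 71.2, 82.4 and 78.6 FPKM in Ep1 and 68.4, 72 and 77.5 FPKM in PBS (Ep2 minus Ep1 0.27, SE 0.07, adjusted p = 0.0158, lost without Ep2_3; PBS minus Ep2 -0.36, SE 0.07, adjusted p = 0.00173). SRSF6, the nearest relative of SRSF4, was called higher in Ep2 than in Ep1 (0.29, SE 0.09, adjusted p = 0.0325), where SRSF4 was lower. That call was lost under 7 of 19 alternatives, among them the loss of Ep1_1, Ep1_3, Ep2_2 or Ep2_3. The remaining genes were not called in any comparison: SRSF2, SRSF3, SRSF5 and SRSF7 averaged 128, 91.4, 60.0 and 171 FPKM in Ep2 and 134, 96.6, 62.2 and 174 FPKM in PBS. SRSF12 was expressed at only 1.58 to 2.37 FPKM.

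The HNRNP class had the highest levels, with a median of the genes' mean FPKM of 202. Between PBS and Ep2, 11 of 20 genes were higher in PBS, 3 were lower and 6 were not called (median log2 difference 0.15, with 17 of 20 above 0). The calls are 70% of the class, against 49.6% of all tested genes (25.4% higher and 24.2% lower) and 65.6% of the most abundant tested genes. After quantile normalization 5 of the 11 higher calls were lost, those of HNRNPK, HNRNPH1, HNRNPAB, HNRNPL and HNRNPD. HNRNPA0, which binds AU-rich mRNA, had the largest difference of the 65 genes, at 109, 109 and 91.1 FPKM in PBS, 91.4, 72.5 and 68 FPKM in Ep1 and 59.8, 53.6 and 48.4 FPKM in Ep2. Ep1_1 lay within the PBS range and the other Ep1 libraries lay between PBS and Ep2. PBS minus Ep2 was 0.92 (SE 0.12, adjusted p = 0.000443) and Ep2 minus Ep1 -0.50 (SE 0.12, adjusted p = 0.0125), the latter lost without Ep2_3 (adjusted p = 0.0563).

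The HNRNPU family split. HNRNPU, a nuclear matrix protein that binds both RNA and chromatin, measured 358, 340.2 and 341 FPKM in PBS, 322, 353 and 328 FPKM in Ep1 and 371, 425 and 427 FPKM in Ep2. Its relative HNRNPUL2 measured 143, 144 and 138 FPKM in PBS, 136, 106 and 102 FPKM in Ep1 and 81.7, 82.5 and 84.6 FPKM in Ep2. HNRNPUL1 measured 118, 114 and 113 FPKM in PBS, 104, 99.8 and 88.3 FPKM in Ep1 and 76.9, 81.9 and 80.4 FPKM in Ep2. HNRNPU was thus highest in Ep2, without overlap with either group, whereas both relatives, which act in the DNA damage response, were lowest there, again without overlap. For Ep2 minus Ep1 the log2 differences were 0.28 (SE 0.06, adjusted p = 0.012) for HNRNPU, -0.45 (SE 0.09, adjusted p = 0.00777) for HNRNPUL2 and -0.28 (SE 0.06, adjusted p = 0.012) for HNRNPUL1. For PBS minus Ep2 they were -0.23 (SE 0.06, adjusted p = 0.0128), 0.76 (SE 0.09, adjusted p = 0.00037) and 0.52 (SE 0.06, adjusted p = 0.00042). Both HNRNPU calls were lost without Ep2_2 or Ep2_3 (adjusted p of 0.0571 and 0.0558 at most), while those of HNRNPUL1 and HNRNPUL2 held under every alternative tried.

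HNRNPA1, a repressor of exon inclusion that often opposes SRSF1, measured 392, 396 and 403 FPKM in PBS, 377, 333 and 324 FPKM in Ep1 and 308, 277 and 288 FPKM in Ep2. The groups did not overlap, and the order was PBS above Ep1 above Ep2 (PBS minus Ep2 0.45, SE 0.06, adjusted p = 0.000624; Ep2 minus Ep1 -0.24, SE 0.06, adjusted p = 0.0203, lost without Ep2_2 or Ep2_3). HNRNPA2B1, a close relative, measured 442, 451 and 457 FPKM in PBS, 453, 396 and 398 FPKM in Ep1 and 415, 418 and 425 FPKM in Ep2. It was not called (PBS minus Ep2 0.10, SE 0.06, adjusted p = 0.159). HNRNPK, which binds C-rich RNA, had the highest mean of all, at 471 ± 28.9 FPKM (SD, n = 3) in PBS, 427 ± 14.8 FPKM in Ep1 and 424 ± 11 FPKM in Ep2; its call for PBS minus Ep2 (0.15, SE 0.06, adjusted p = 0.0435) was lost under 11 of 18 alternatives, among them the loss of any 1 PBS column, of any 1 Ep2 library or of Ep1_2. HNRNPC, which binds uridine tracts, lay at 67.5 to 74.4 FPKM in all libraries and was not called.

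HNRNPLL, known in T cells for regulating CD45 exons, measured 38.5, 38.4 and 37 FPKM in Ep2 against 29.9, 30.1 and 33.5 FPKM in Ep1 and 29.7, 29 and 32.2 FPKM in PBS, so that all Ep2 values lay above the others (Ep2 minus Ep1 0.28, SE 0.06, adjusted p = 0.0126, PBS minus Ep2 -0.32, SE 0.06, adjusted p = 0.00277). HNRNPL, its relative, was called the other way between PBS and Ep2, at 0.15, a call lost without column PBS1, column PBS2, Ep2_1 or Ep2_2. This call was also lost with quantile normalization, with the length trend removed and without the variance trend on intensity. HNRNPDL differed by -0.13 (SE 0.05, adjusted p = 0.0462) for PBS minus Ep2, a call lost under 10 of 18 alternatives, among them the loss of any 1 PBS column, of Ep1_2, Ep1_3, Ep2_2 or Ep2_3. The other called genes, HNRNPM, HNRNPH3, HNRNPAB, HNRNPH1 and HNRNPD, were higher in PBS than in Ep2 by 0.16 to 0.31 on the log2 scale. Of these, HNRNPM and HNRNPH3 held under every alternative, whereas the calls of HNRNPAB and HNRNPD were lost under 8 and 10 of 18 alternatives, for both the loss of column PBS1, column PBS2, Ep1_2 or Ep2_1 and for HNRNPD also that of Ep2_2 or Ep2_3. HNRNPA3, HNRNPF, HNRNPH2 and HNRNPR were not called in any comparison. Near-identical copies of hnRNP genes can share reads, so values of HNRNPH1 and HNRNPH2 and of HNRNPA1 and HNRNPA3 are uncertain.

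**Figure D3:**
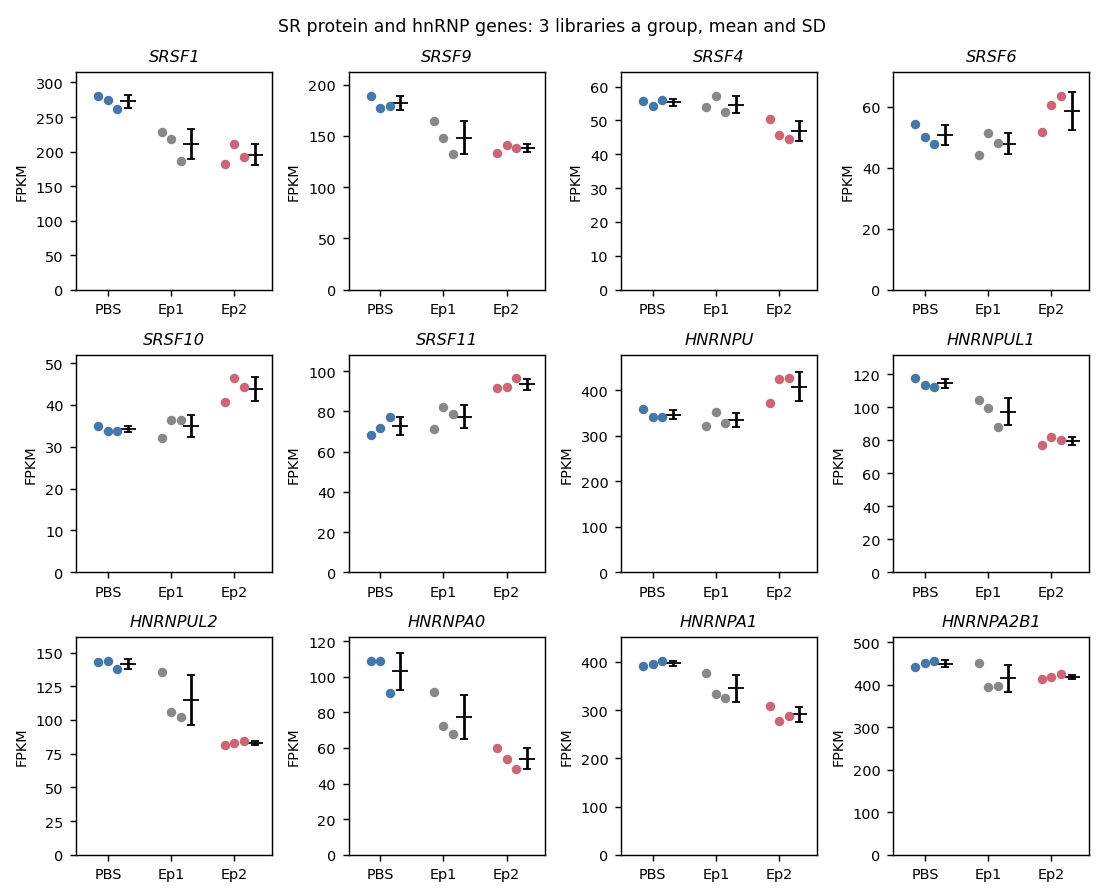
FPKM of 6 SRSF and 6 HNRNP genes, 1 panel a gene with the vertical axis from 0; points are the 3 libraries of each group and the bar gives mean and SD. SRSF10, SRSF11 and HNRNPU were highest in Ep2, whereas SRSF4, HNRNPUL1, HNRNPUL2, HNRNPA0 and HNRNPA1 were lowest there.

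SF3A and SF3B proteins form the part of the U2 snRNP that clamps the branch point. Between PBS and Ep2, 4 of 9 of their genes were higher in PBS, 1 was lower and 4 were not called (median log2 difference 0.06). The calls are 55.6% of these genes, against 49.6% of all tested genes. SF3B1, the large scaffold that encloses the branch point adenosine, measured 55.5, 56 and 55.8 FPKM in PBS, 56.1, 64.4 and 62.6 FPKM in Ep1 and 65.1, 63.2 and 66.2 FPKM in Ep2. The PBS values were the lowest, without overlap with Ep2 or Ep1, and SF3B1 was the gene of the class called lower in PBS (-0.21, SE 0.06, adjusted p = 0.0128). SF3B4, which binds pre-mRNA upstream of the branch point, measured 94.4, 91.8 and 83.4 FPKM in PBS, 83.7, 80.5 and 73.5 FPKM in Ep1 and 64.1, 66.7 and 63.3 FPKM in Ep2. SF3B5, a small subunit, measured 73.8, 71.2 and 67.4 FPKM in PBS, 65.4, 60.9 and 62.9 FPKM in Ep1 and 56, 41.8 and 45.1 FPKM in Ep2. Both were lowest in Ep2, where no value reached those of Ep1 or PBS. PBS minus Ep2 was 0.47 (SE 0.07, adjusted p = 0.000592) for SF3B4 and 0.57 (SE 0.09, adjusted p = 0.000969) for SF3B5, and Ep2 minus Ep1 was -0.29 (SE 0.07, adjusted p = 0.0125) and -0.41 (SE 0.09, adjusted p = 0.0117), both lost without Ep2_3 (adjusted p of 0.0533 and 0.0511). SF3A2, which contacts the U2 RNA and branch region, measured 32.6, 30.1 and 25.6 FPKM in PBS, 30.6, 24 and 21 FPKM in Ep1 and 17.4, 21.7 and 19.5 FPKM in Ep2 (PBS minus Ep2 0.57, SE 0.13, adjusted p = 0.00572). SF3B2 was higher in PBS by 0.21 (SE 0.05), a call lost with quantile normalization (adjusted p = 0.0507). SF3B6, a small protein at the branch point, averaged 105 ± 7.14 FPKM (SD, n = 3) in PBS, 116 ± 4.21 FPKM in Ep1 and 116 ± 2.86 FPKM in Ep2. It was not called, nor were SF3A1, SF3A3 and SF3B3.

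The PRPF genes code for pre-mRNA processing factors of several complexes, and their calls divided evenly: 3 of 13 were higher in PBS than in Ep2, 3 were lower and 7 were not called (median log2 difference -0.02). The calls are 46.2% of the class, against 49.6% of all tested genes. PRPF39, a partner of the U1 snRNP, measured 15, 14.1 and 14.9 FPKM in PBS, 15.4, 17.2 and 15.6 FPKM in Ep1 and 19.3, 20.5 and 19.8 FPKM in Ep2. It was highest in Ep2, with no overlap with the other groups. For PRPF39, Ep2 minus Ep1 was 0.29 (SE 0.06, adjusted p = 0.0098) and PBS minus Ep2 was -0.41 (SE 0.06, adjusted p = 0.000781). PRPF4B, a kinase that phosphorylates splicing factors, differed by -0.33 (SE 0.08, adjusted p = 0.00672) for PBS minus Ep2.

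Of the genes higher in PBS, PRPF31, a protein of the U4/U6 snRNP, measured 40.1, 35.8 and 36.5 FPKM in PBS, 33.4, 29.3 and 27.4 FPKM in Ep1 and 27.3, 31.3 and 27.2 FPKM in Ep2 (PBS minus Ep2 0.38, SE 0.08, adjusted p = 0.00439). PRPF3, of the same snRNP, differed by 0.20 (SE 0.07, adjusted p = 0.0359), lost without column PBS1, column PBS3 or any 1 Ep2 library and without the filter on low values. PRPF19, the ubiquitin ligase that gives its name to a complex of the catalytic spliceosome, differed by 0.21 (SE 0.07, adjusted p = 0.036), lost under 9 of 18 alternatives, among them the loss of column PBS1, column PBS2 or any 1 Ep2 library. PRPF8, the protein at the heart of the catalytic centre, measured 142, 138 and 144 FPKM in PBS, 143, 151 and 151 FPKM in Ep1 and 146, 153 and 145 FPKM in Ep2. It was not called in any comparison, with a PBS minus Ep2 difference of -0.07 (SE 0.05, adjusted p = 0.268). PRPF40B, at 0.899 to 1.37 FPKM, lay at the filter on low values, and PRPF4, PRPF6, PRPF18, PRPF38A and PRPF38B were not called in any comparison.

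**Figure D4:**
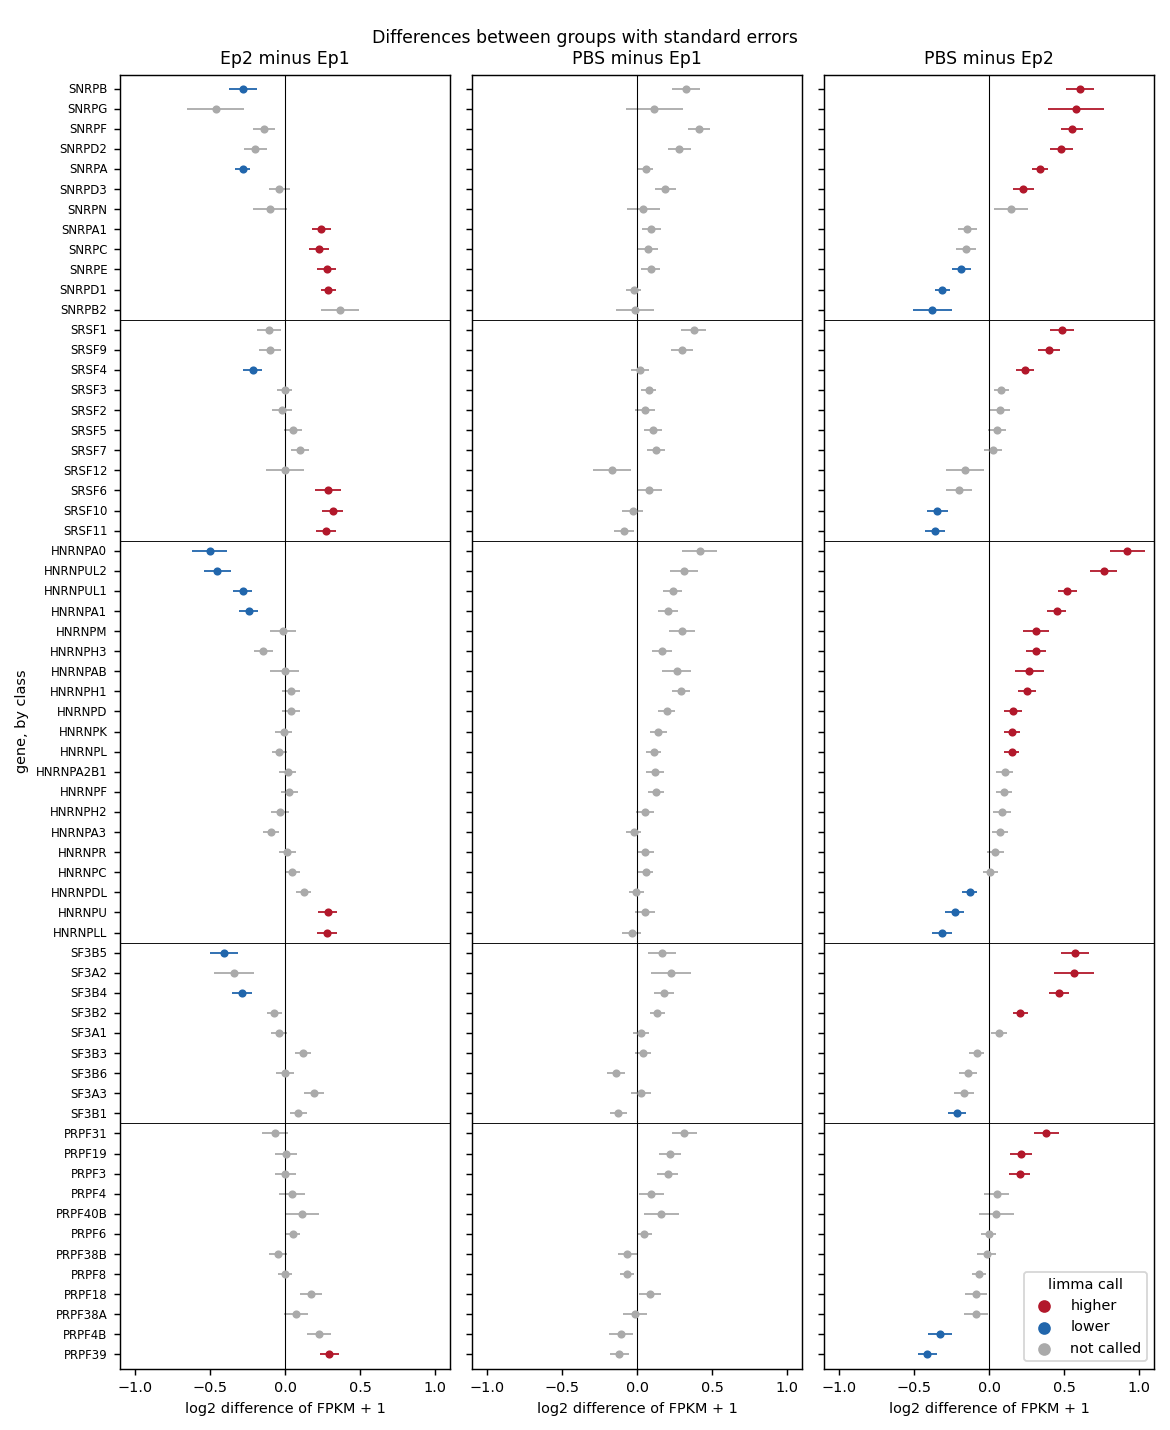
Log2 differences of FPKM + 1 for 64 of the 65 genes (rows, by class) in the 3 comparisons (panels); bars are standard errors of the limma fit, red marks genes called higher in the first group and blue those called lower. Calls lie on both sides of 0 in the left panel (10 higher and 9 lower drawn) and the right panel (27 and 11), and the middle panel has 0 calls.

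Between PBS and Ep1 the limma fit called 0 of the 65 genes, against 0.144% of all tested genes (17 of 11840; 0.0760% higher and 0.0676% lower), 0.169% of the most abundant genes and 0.457% of genes of at most 1000 bases. An unadjusted p under 0.05 was reached by 24 genes (36.9%), 11 of them in the HNRNP class, and by 2648 of the 11840 tested genes (22.4%). On the recovered fragments limma voom called 11 genes, all higher in PBS, among 525 calls over all genes (4.43%). The outcome depended on Ep1_1: without it, 18 genes were called, 16 higher and 2 lower in PBS, among 1887 calls over all genes (16.0%). The largest of these differences were those of HNRNPA0 (0.54, SE 0.10, adjusted p = 0.0110), SNRPF (0.50, SE 0.05, adjusted p = 0.00269), SNRPB (0.45, SE 0.06, adjusted p = 0.00338) and HNRNPUL2 (0.44, SE 0.05, adjusted p = 0.00236). SF3B1 (-0.18, SE 0.05) was among the lower genes. With all libraries, 49 of the 65 differences were above 0, with a median of 0.09, against 5992 of 11840 and a median of 0.00265. The libraries of the 2 groups did not overlap for 25 genes (38.5%, against 23.7% of all tested genes), and without Ep1_1 for 44 (67.7%, against 51.3%). SNRPF had the smallest adjusted p of the 65 genes, at 0.0593, and HNRNPH1 measured 276, 254 and 258 FPKM in PBS against 223, 216 and 203 FPKM in Ep1 (adjusted p = 0.0655).

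Summed over each class, the HNRNP FPKM was 4219 to 4279 FPKM in PBS, 3597 to 4023 FPKM in Ep1 and 3634 to 3809 FPKM in Ep2. The SNRP sum was 1655 to 1710, 1378 to 1605 and 1381 to 1472 FPKM in the same groups, and the SRSF sum 1116 to 1153, 954 to 1053 and 995 to 1058 FPKM. In these 3 classes every PBS library lay above every Ep1 and Ep2 library, Ep1_1 being the next highest for HNRNP and SNRP. The SF3A and SF3B sum was 674 to 711 FPKM in PBS, 664 to 682 FPKM in Ep1 and 647 to 655 FPKM in Ep2; here PBS and Ep1 overlapped, and Ep2 lay below both. For SRSF the mean of Ep2 (1028 FPKM) was above that of Ep1 (1015 FPKM), and for PRPF the group means were 522 FPKM in PBS, 509.9 FPKM in Ep1 and 533 FPKM in Ep2, where the libraries of the groups overlapped.

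Gene length moved with the difference between PBS and Ep2. Across the 65 genes the log2 difference and the length had a Spearman correlation of -0.37, against -0.16 over all 11840 tested genes; genes share libraries and are not independent, and this is a description. Of the 10 genes of at least 4000 bases, a limit chosen after the values were seen, 9 had a PBS minus Ep2 difference below 0 and 5 were called lower in PBS, against 57.3% below 0 among all 3821 tested genes of that length. The share called among those 3821 genes was not computed. The short genes did not share a direction. Among the 11 genes of at most 1000 bases, 5 were called higher in PBS and 2 lower, and SNRPF (555 bases) and SNRPD1 (583 bases) were called in opposite directions. Of all 1532 tested genes of that length, 32.1% were called higher in PBS and 16.9% lower, a lean in the same direction. With the length trend removed over all genes, 35 of the 65 genes were called between PBS and Ep2, 20 higher and 15 lower in PBS, in place of 27 and 12, and 31 of the 39 calls held.

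**Figure D5:**
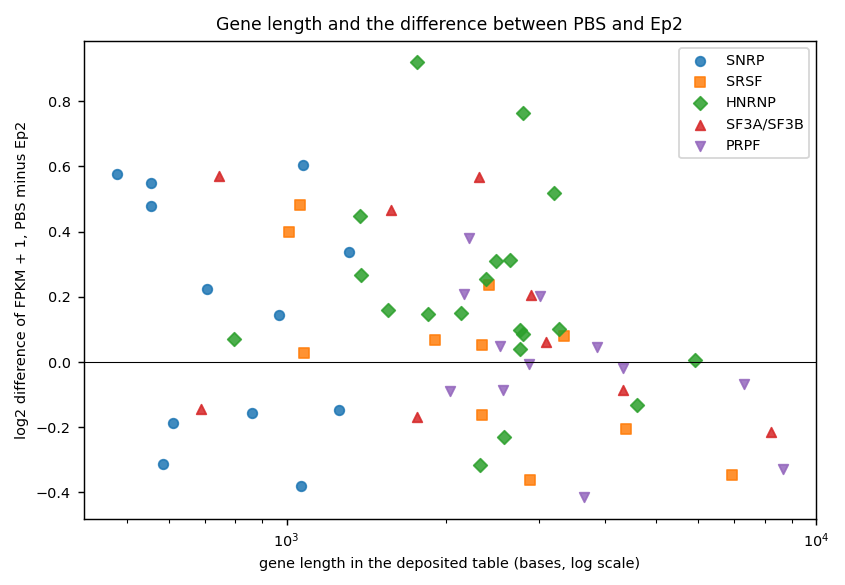
Log2 difference of FPKM + 1 between PBS and Ep2 (vertical axis) against gene length in bases (horizontal axis, log scale) for 64 of the 65 genes, with 1 marker a gene by class. Genes of at least 4000 bases lie at or below 0 apart from HNRNPC at 0.01, while shorter genes lie on both sides.

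The rest of the splicing machinery was taken from 9 lists of textbook members, of which 132 genes were tested. Of these, 30 were higher and 12 lower in Ep2 than in Ep1, and 32 were higher and 39 lower in PBS than in Ep2. The calls are 31.8% and 53.8% of the 132 genes, against 27.4% and 49.6% of all tested genes. Between PBS and Ep1, 0 of the 132 genes were called, against 0.144% of all tested genes. Without Ep1_1, 22 were higher and 8 lower in PBS than in Ep1 (22.7%, against 16.0% of all tested genes). For Ep2 minus Ep1 the 42 calls became 26 without Ep1_1, 22 without Ep2_2 and 19 without Ep2_3, where 15.6%, 12.7% and 10.7% of all tested genes were called. The list for assembly of the Sm ring had 8 of 14 genes higher and 1 lower in Ep2 than in Ep1 (median log2 difference 0.24, against -0.00352 over all tested genes) and 0 higher and 6 lower in PBS than in Ep2, where 25.4% and 24.2% of all tested genes were called in these directions. For Ep2 minus Ep1 its 9 calls fell to 3 higher and 0 lower without Ep1_1, to 2 and 0 without Ep2_2, to 1 and 1 without Ep2_3 and to 5 and 1 without Ep2_1. For PBS minus Ep2 its 6 calls are 42.9% of the list, below the 49.6% of all tested genes. They became 4 without Ep2_2 or Ep2_3, which is 28.6%, against 39.9% and 39.2% of all tested genes. Among its called genes DDX20, also known as GEMIN3, a helicase of the SMN complex that loads the ring, averaged 23.9 ± 1.21 FPKM (SD, n = 3) in Ep2, 18.5 ± 1.14 FPKM in Ep1 and 17.2 ± 1.08 FPKM in PBS (PBS minus Ep2 -0.45, SE 0.07, adjusted p = 0.000864). CLNS1A, the chaperone pICln that holds Sm proteins before assembly, averaged 19.4, 15 and 15.5 FPKM in the same order (PBS minus Ep2 -0.30, SE 0.08, adjusted p = 0.0133, lost without Ep2_2 or Ep2_3). GEMIN7, another SMN complex protein, differed by 0.44 (SE 0.10) between Ep2 and Ep1, lost without Ep2_3, and GEMIN8 by -0.38 (SE 0.10), lost without Ep1_1 or Ep2_2.

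The list of the PRPF19 complex and catalytic factors had 7 of 18 genes higher and 1 lower in Ep2 than in Ep1, against 13.4% and 14.0% of all tested genes, and 3 higher and 9 lower in PBS than in Ep2, against 25.4% and 24.2%. With single libraries left out, 6 or 7 genes were called higher in Ep2 than in Ep1, where 10.7% to 29.0% of all tested genes were called in either direction. The calls for PBS minus Ep2 fell from 12 to 7 without column PBS2 or Ep2_3 and to 8 without Ep2_2. The 7 calls are 38.9% of the list, near the 38.2% and 39.2% of all tested genes in these settings. The 8 calls are 44.4%, against 39.9%. CWC15 differed by 0.50 (SE 0.07, adjusted p = 0.00425) for Ep2 minus Ep1 and CDC5L, a core member of the complex, by 0.36 (SE 0.07, adjusted p = 0.00766). Of 9 SR protein kinases, phosphatase and import genes, 2 were higher and 5 lower in PBS than in Ep2, against 25.4% and 24.2% of all tested genes. CLK1, a kinase that releases SR proteins from nuclear speckles, averaged 44.3 FPKM in Ep2 and 31.1 FPKM in PBS (PBS minus Ep2 -0.50, SE 0.08, adjusted p = 0.00108), whereas its relative CLK3 was lower in Ep2 than in Ep1 (-0.42, SE 0.08, adjusted p = 0.0076). Of 7 exon junction complex genes, 5 were higher in PBS than in Ep2 and 1 was lower (median 0.35), against 25.4% and 24.2% of all tested genes; SAP18 (0.75, SE 0.16) and RBM8A (0.56, SE 0.11) were among the higher. Between Ep2 and Ep1 the same list had 1 gene higher, MAGOHB (0.42, SE 0.08), and 1 lower, RNPS1 (-0.23, SE 0.05). These calls are 28.6% of the list, against 27.4% of all tested genes.

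Among other snRNP proteins, 5 of 19 were higher and 2 lower in PBS than in Ep2 (36.8% called). Over all tested genes 49.6% were called between these groups, which also applies to the lists below. SNRNP70, the U1 protein that works beside SNRPA and SNRPC, measured 144, 152 and 142 FPKM in PBS, 139.8, 117 and 106 FPKM in Ep1 and 84.4, 72 and 69.9 FPKM in Ep2. Its groups did not overlap, and it differed by 0.95 (SE 0.10, adjusted p = 0.000298) for PBS minus Ep2 and by -0.67 (SE 0.10, adjusted p = 0.0044) for Ep2 minus Ep1. SNRNP35, its counterpart in the minor spliceosome, differed by 0.80 (SE 0.12) for PBS minus Ep2. Of 10 LSM genes, some of which code for the relative of the Sm ring on U6 RNA, 4 were higher and 1 lower in PBS than in Ep2 (50% called). LSM7 differed by 1.22 (SE 0.26, adjusted p = 0.00364) for PBS minus Ep2. U2AF1, which reads the downstream splice site, was lower in Ep2 than in Ep1 (-0.30, SE 0.07, adjusted p = 0.0104), as was CHERP (-0.37, SE 0.08, adjusted p = 0.011). In their list 4 of 10 genes were higher and 2 lower in PBS than in Ep2 (60% called). Spliceosomal helicases had 1 of 12 higher and 3 lower in PBS than in Ep2 (33.3% called), DDX5 (-0.40, SE 0.05) being among the lower. For 33 other splicing regulators the counts were 8 higher and 10 lower in PBS than in Ep2 (54.5% called). TRA2A (0.33, SE 0.06) and TIAL1 (0.30, SE 0.05) were higher in Ep2 than in Ep1, and PTBP3 was lower in PBS than in Ep2 (-0.54, SE 0.09).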

How the data were processed

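Expression in 9 NBL-7 libraries was analysed, grouped by treatment label. The deposited table gives FPKM, fragment numbers scaled by gene length and by library size, per the file headers, beside the length of each gene. The submitters' processing notes name Bowtie 0.12.2 and mouse build mm8, although the gene symbols come from a ferret annotation; since this is unsettled, coordinates and sequences are left out. The sources used here do not name the counting tool, annotation release or strand setting. Multiplying FPKM by length recovered whole fragments for 100% of nonzero values (tolerance 0.02), and 1 fragment on a gene of 1000 bases is worth 0.0739 to 0.0802 FPKM. Replicate libraries differed beyond sampling noise (chi-square per degree of freedom 2.73 to 10.9), so all were kept.

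Log2(FPKM + 1) was compared using limma 3.58.1 (R 4.3.3). One model held all 9 libraries with a mean for each group and a variance trend on intensity. It covered the 11840 genes that reached 1 FPKM in 3 or more libraries, and Benjamini-Hochberg adjustment ran over all of them. The added 1 makes differences of weakly expressed genes look smaller. The code was tested on simulated fragments, with a fixed spread that was not estimated from the data. Of 50 genes raised 1.2-fold in Ep2, 6 were recovered for Ep2 minus Ep1 and 8 for PBS minus Ep2. At 1.5-fold, 50 and 48 were recovered. A gene not called can therefore still differ by a small fold. Named genes are, per class, the 2 with the highest mean, up to 3 called genes per comparison and direction whose groups did not overlap and whose mean reached 5 FPKM in a group, and a fixed set; further members were named after their values were seen. From each list of other splicing genes, named genes come from the 2 largest called differences per comparison. Values of 1 member and of 1 gene of the other lists are not reported here, and the figures leave that member out; counts include both. Members and lists were chosen with earlier results of these data known. Alternatives were another pseudocount, other filters and scalings, no trend, removal of the length trend, voom on recovered fragments, 6 libraries only, a replicate block and leaving out each library.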

Additional observations from a re-analysis of the deposited data

How the results depend on the processing

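Of the 59 calls of splicing factor genes, 20 for Ep2 minus Ep1 and 39 for PBS minus Ep2, 7 and 25 held under every alternative, 13 and 14 were lost under at least 1, and 0 changed direction. Leaving out single libraries moved the counts for Ep2 minus Ep1 between 4 and 13 higher and between 3 and 11 lower, for PBS minus Ep1 between 0 and 16 higher and between 0 and 2 lower, for PBS minus Ep2 between 19 and 28 higher and between 8 and 14 lower, and for the F-test between 23 and 40. For PBS minus Ep1, 2 genes were called higher at a minimum of 5 FPKM (HNRNPH1 and SNRPF), 1 with the length trend removed (SNRPF) and 11 with voom on recovered fragments, against 0. For PBS minus Ep2, quantile normalization gave 19 lower calls in place of 12. The counts of genes whose groups do not overlap and of orders of means were recomputed without Ep1_1, an alternative chosen after seeing the data. The cause of these moves was not tested. Deviations of same-numbered Ep1 and Ep2 libraries had correlations of 0.152, 0.0720 and 0.0647, and those of differently numbered ones -0.127 to 0.0733. Whether the replicate numbers pair the libraries was not tested. With the replicate block, 14 genes were higher and 10 lower in Ep2 than in Ep1, against 12 and 7 in the same 6 libraries without it. No paired analysis was possible with PBS because its columns carry no number that can be tied to a title. At this depth genes near 1 FPKM, SRSF12 and PRPF40B, rest on few fragments.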
